A study of Homo sapiens with 12 samples.

Results

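The regions described here are 2274 summits of histone H3 lysine 27 acetylation (H3K27ac), out of 37946 in the list at 0 µM choline, in Huh7, a human hepatocellular carcinoma line. A summit is the position where a peak of sequenced ChIP fragments is highest. The members were chosen by their positions alone. Each lay on chromosomes 1 to 22 or X, more than 2.5 kb from either end of every protein-coding gene, had a 15 µM H3K27ac summit (its partner) within 500 bp, and had no summit of histone H3 lysine 4 monomethylation (H3K4me1) within 1 kb in the list of either dose. The cells were wild type. They were kept for 48 h with 15 µM or with 0 µM choline, in medium made without choline and with B-27 in place of serum, and were profiled by ChIP-seq with 1 antibody for each mark. Each mark and dose had 1 library, so no spread between samples could be measured and no dose difference was tested. The other 8 of the 12 samples (inputs, RNA-seq and KLF5 CUT&Tag) were not used here.

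The 15 µM H3K27ac list held 29305 summits, 77.2% as many as the 0 µM list. The H3K4me1 lists held 349202 summits at 15 µM and 343156 at 0 µM. Read depth is unknown. Each summit carries the authors' score from peak calling, on a −log10 scale. A rank below is the percentile of a score in its own list, 100 being the highest. Scores and ranks of the 2 doses stand side by side without being read as a change, because the lists differ in length. The highest H3K4me1 score was 158 at 15 µM and 15025 at 0 µM, but no nearest H3K4me1 summit of a member scored above 89.5 at 15 µM or 63.9 at 0 µM. In bulk chromatin, fewer cells with a mark and less of the mark in each cell cannot be told apart. Intervals are 95%, cover counting error only, and treat neighbouring summits as separate.

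H3K27ac is laid down by the acetyltransferases p300 and CBP at active promoters and enhancers. H3K4me1, written by KMT2C and KMT2D, spreads over enhancers and over the flanks of promoters. It is typically low at the nucleosomes closest to a strong start site, where H3K4me3 takes its place, and it often forms broad stretches on either side of an open regulatory element. Far from the ends of coding genes, H3K27ac is found at enhancers and at the start sites of alternative and non-coding transcripts.

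A small group of members lay at listed starts of coding or long non-coding RNA genes. The windows of 4 are shown because they give the sequence at which such members sat. Of the 2274 members, 21 lay inside the 300 bases (250 before to 50 after) of 22 listed RefSeq gene starts (GRCh38.p14). The windows below are written 5′ to 3′ on the gene's strand, and were picked after their values were seen to span high and low scores and rich and poor CpG content. Capitals mark the letters of 5 promoter motifs, which are spelled out after the windows and were searched on both strands.
SMC2 start, chr9:104094059-104094358, plus strand: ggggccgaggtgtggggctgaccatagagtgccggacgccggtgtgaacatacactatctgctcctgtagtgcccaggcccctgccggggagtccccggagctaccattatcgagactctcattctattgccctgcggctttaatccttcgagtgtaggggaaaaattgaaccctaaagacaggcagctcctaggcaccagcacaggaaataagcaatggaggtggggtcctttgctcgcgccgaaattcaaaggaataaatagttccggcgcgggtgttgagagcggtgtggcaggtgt
LINC00667 start, chr18:5237850-5238149, plus strand: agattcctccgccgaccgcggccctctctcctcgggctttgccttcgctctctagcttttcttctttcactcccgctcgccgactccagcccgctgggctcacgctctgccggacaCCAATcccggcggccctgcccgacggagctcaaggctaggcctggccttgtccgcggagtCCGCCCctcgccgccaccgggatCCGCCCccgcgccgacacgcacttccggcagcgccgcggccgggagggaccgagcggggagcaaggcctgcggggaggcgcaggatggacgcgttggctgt
HNRNPF start, chr10:43397228-43397527, minus strand: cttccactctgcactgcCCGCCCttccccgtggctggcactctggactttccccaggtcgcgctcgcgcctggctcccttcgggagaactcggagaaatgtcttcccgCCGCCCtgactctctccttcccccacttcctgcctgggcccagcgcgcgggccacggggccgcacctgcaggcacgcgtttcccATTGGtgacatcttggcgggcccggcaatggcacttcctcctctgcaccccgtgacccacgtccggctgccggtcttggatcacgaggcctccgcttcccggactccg
AHCYL1 start, chr1:110003698-110003997, plus strand: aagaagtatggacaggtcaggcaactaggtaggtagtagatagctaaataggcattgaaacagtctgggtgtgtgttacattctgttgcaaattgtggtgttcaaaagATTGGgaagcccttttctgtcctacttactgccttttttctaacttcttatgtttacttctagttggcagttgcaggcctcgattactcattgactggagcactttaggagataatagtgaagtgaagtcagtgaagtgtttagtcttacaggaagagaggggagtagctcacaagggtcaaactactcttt

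SMC2 encodes a core subunit of condensin, which compacts mitotic chromosomes. The member in its window lay 122 bases before the listed start, at chr9:104094187, and scored 21.6 at 15 µM and 74.7 at 0 µM. The window held 16 CpG and none of the 5 motifs. In the LINC00667 window, at a long non-coding RNA gene, the member lay 136 bases before the start and scored 21.1 at 15 µM and 23.1 at 0 µM. This was the richer kind of window, with 38 CpG, 2 GC boxes and 1 CCAAT box. HNRNPF encodes an RNA-binding splicing factor, and its member, 6 bases after the listed start, scored 5.43 at 15 µM and 17.1 at 0 µM. AHCYL1 encodes a relative of S-adenosylhomocysteine hydrolase that binds the inositol trisphosphate receptor. Its member lay 155 bases before an internal start of the gene and scored 29.1 at 15 µM and 28.5 at 0 µM, in a window with 1 CpG and 1 CCAAT box. Across the 22 windows, 7 held GGGCGG, the GC box, which 45.0% of all 34961 listed windows hold. The pentamer CCAAT was in 9, beside 34.6% of all windows. The TATA letters, TATAAA, were in 2, beside 11.5%. The AP-1 letters, TGACTCA, were in 1, beside 4.92%. A KLF-type CACCC box, written GGGTGTGGC, was in 0, beside 0.955%. The median window had 63.5% G and C and 24.5 CpG, beside 58.7% and 14.0 for all windows. RHOBTB1 and LOC107984236 share 1 member and most of their window. A match of letters does not show a bound site.

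Starts were nevertheless rare in the set, in part by the rule, which leaves out summits within 2.5 kb of a coding gene end. A listed start of a protein-coding or long non-coding RNA gene lay within 1 kb of 104 members (4.57%, interval 3.75 to 5.51), close to the 4.40% (3.99 to 4.85) of the 9018 stable distal summits that did have an H3K4me1 summit within 1 kb. These 9018 are the comparison used from here on, and they passed the same limit on coding gene ends. The share was higher in members on 10 chromosomes and lower on 12. Protein-coding starts were within 1 kb of 2.59% of members and 2.45% of the comparison, and long non-coding RNA starts of 2.33% and 2.26%. The end of any gene that is not protein coding lay within 1 kb of 6.42% (5.45 to 7.51) of members and 6.10% (5.61 to 6.61) of the comparison, a difference of 0.321 points that was positive on 10 of 23 chromosomes. Whether a summit lies in an exon, an intron or a UTR could not be given, because the gene tables used hold no exons.

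After SMC2, the members with the highest 0 µM scores within 1 kb of a coding start, a group chosen after their values were seen, lay at GAS2, NHSL1, ACVR1, CTDSP1, BAZ2B, EPC1 and SIN3A. GAS2, which links actin and microtubules, had 70.2 at 15 µM and 72.9 at 0 µM. ACVR1, a type I receptor for bone morphogenetic proteins, had 29.2 at 15 µM and 61.8 at 0 µM. SIN3A, the scaffold of a histone deacetylase complex, had 20.1 at 15 µM and 45.0 at 0 µM. Its nearest H3K4me1 summits, 2391 bp away at 15 µM and 2345 bp away at 0 µM, ranked only 26.7 and 29.5. Those beside ACVR1 ranked 99.2 at 15 µM and 99.8 at 0 µM. Both low and high ranks of the nearest H3K4me1 summit thus occurred at starts.

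Most members were not far from H3K4me1, and the H3K4me1 beside them was among the highest scoring in the cells. The nearest summit of either list lay at a median of 1538 bp (interval 1502 to 1573). At 15 µM the median was 2006 bp and at 0 µM 1786 bp. Of the 2274, 1087 (47.8%) had one within 1.5 kb, a further 517 within 2 kb, 430 within 3 kb, 201 within 5 kb and 37 within 10 kb, and 2 had none within 10 kb (0.0880%, interval 0.0107 to 0.317). The 3394 distal summits with neither a partner nor an H3K4me1 summit within 1 kb had the same median distance to either list, 1538 bp (1511 to 1561). These distances follow in part from the rule. The score of the nearest H3K4me1 summit was not used by it, and the median rank was 98.1 (97.9 to 98.3) at 15 µM and 97.4 (97.2 to 97.7) at 0 µM. For the comparison it was 95.3 (95.3 to 95.6) at 15 µM and 94.3 (94.2 to 94.7) at 0 µM. The members' median was the higher on 20 of 23 chromosomes at 15 µM and on 22 at 0 µM. The summit ranked above 90 for 73.5% of members against 70.2% of the comparison at 15 µM, and for 72.9% against 64.5% at 0 µM. The nearest summit of a member lies further away by the rule, so the ranks compare summits at different distances.

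**Figure D1:**
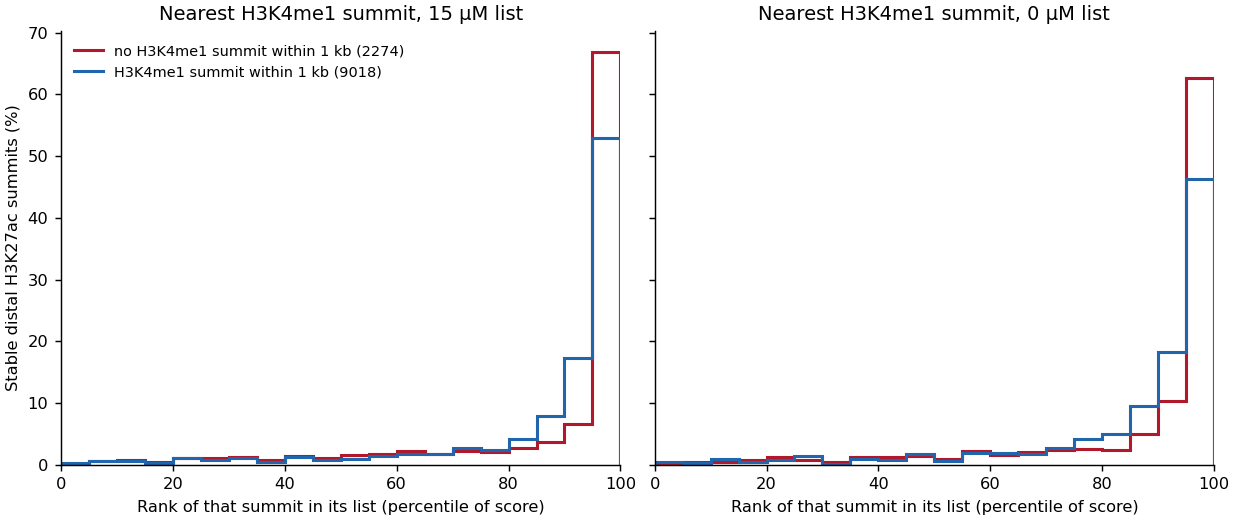
Share of stable distal H3K27ac summits (y axis, %) by the rank of the nearest H3K4me1 summit in its list (x axis, percentile of score in steps of 5), in the 15 µM list (left) and the 0 µM list (right). Red is the 2274 summits with no H3K4me1 summit within 1 kb, blue the 9018 with one; both pile up above 95, the red more so (medians 98.1 and 97.4, against 95.3 and 94.3).

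The label of the set, H3K27ac without H3K4me1, is therefore kept here only as its rule states it. The highest H3K4me1 summits stood furthest from their neighbours: the median distance to the next summit of the same list was 2967 bp at 15 µM and 2550 bp at 0 µM for ranks above 99, against 1600 bp and 1624 bp for ranks up to 50. It did not rise steadily with rank, being shortest from 50 to 75 (1175 bp and 1161 bp). Each deposited peak name occurs with 1 summit, and peak widths are not in the files used. Whether a member lies inside an H3K4me1 peak whose summit is more than 1 kb away was not tested. The members fell into 1855 gaps between consecutive H3K4me1 summits of the 2 lists joined, with 1543 gaps holding 1 member and 312 holding 2 or more. The rule makes such gaps at least 2 kb wide, and their median was 4294 bp (4178 to 4385), against 1700 bp (1663 to 1732) for the 8432 gaps of the comparison. At least 1 of the 2 flanking summits ranked above 90 in 93.5% of the members' gaps and 79.4% of the comparison's, and both did in 37.4% and 33.8%.

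Several of the gaps with most members, chosen after their values were seen, lay over named genes. The widest of them, 23341 bp over UTS2B and CCDC50 on chromosome 3, held 6 members among 13 H3K27ac summits at 15 µM and 18 at 0 µM. ACTN4, which crosslinks actin filaments, had a gap of 14778 bp with 6 members and both flanks at rank 99.9. In B4GALT5, a galactosyltransferase that makes lactosylceramide, 16011 bp held 6 members between flanks of rank 99.7 or more. LGR4, a receptor for R-spondins in Wnt signalling, had 5 members in 15835 bp, among 12 H3K27ac summits at 15 µM and 7 at 0 µM. NFE2L2, the transcription factor NRF2 of the antioxidant response, had 4 members in 20294 bp with 9 summits at each dose. SPATS2L had 4 in 14130 bp, with 12 summits at 15 µM and 7 at 0 µM. A low-ranked flank occurred at LGR4 (15.5) and CCDC50 (32.6).

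**Figure D2:**
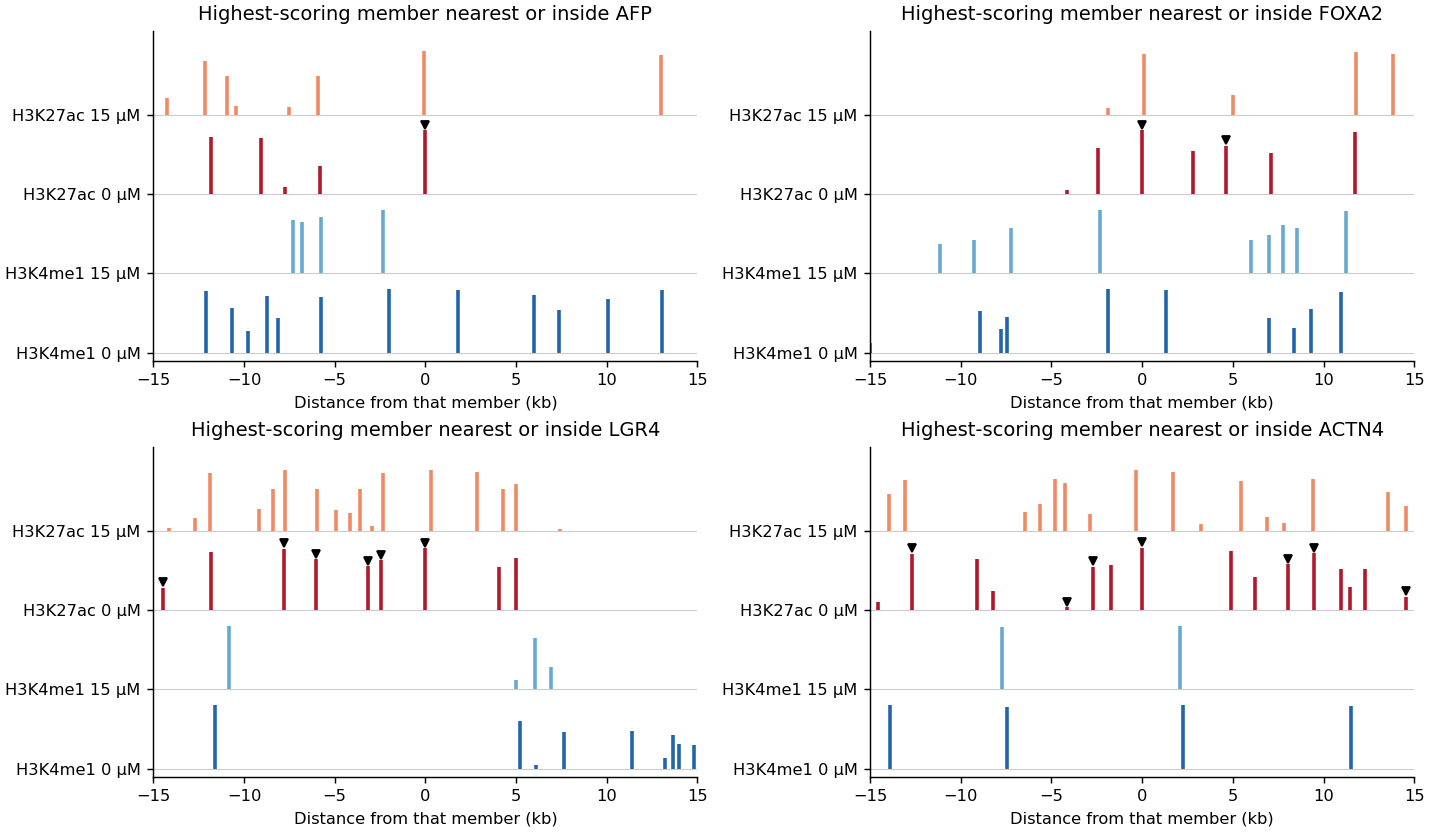
Summits of the 4 lists within 15 kb of the highest-scoring member nearest to AFP or FOXA2, or inside LGR4 or ACTN4. The x axis is the distance from that member in kb, each row is 1 list, bar height is the summit's rank within its list (full height is 100), and triangles mark members, of which the maps hold 1 at AFP, 2 at FOXA2, 6 at LGR4 and 7 at ACTN4; no H3K4me1 bar lies within 1 kb of a member.

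For a minority of members, called the weak group here, the nearest H3K4me1 summit was of low rank in both lists. A summit of high rank can still lie a little beyond the nearest one, as it did for a member in DUSP10 (chr1:221708365). The nearest summit ranked 75 or lower in both lists for 150 members (6.60%), and above 90 in both for 1359 (59.8%). Of the 150, 19 (12.7%, 7.80 to 19.1) lay within 1 kb of a listed gene start or within 500 bp of a small RNA gene, against 48 (3.53%, 2.62 to 4.66) of the 1359. The comparison showed the same order, with 16.7% (13.8 to 19.9) of 599 against 2.46% (2.04 to 2.93) of 4923, so the members were not alone in it. By chromosome the weak group was small, with 2 to 18 members. Its share at starts or small RNA genes was higher than in all other members on 10 of 23 chromosomes. On the rest, no member of the weak group lay at one. Besides SMC2, the highest scores in the weak group, named after their values were seen, belonged to summits near CROCC (42.0 at 15 µM and 79.6 at 0 µM), in MSRB3 (53.6 at 15 µM and 72.1 at 0 µM), in HMGA2 (72.9 at 15 µM and 71.0 at 0 µM) and near TMPO (16.0 at 15 µM and 70.1 at 0 µM). HMGA2 is an oncofetal chromatin protein, and its member at chr12:65926387 lay 2261 bp from an H3K4me1 summit of rank 34.5 at 15 µM and 2325 bp from one of rank 70.3 at 0 µM. The TMPO member lay 170 bp from a tRNA gene, TRD-GTC1-1, and 111 bp from an end of LINC02453.

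The members included the highest H3K27ac summits of both lists. The first of the 0 µM list lay at chr4:73432583, 3638 bp outside AFP, the fetal serum protein that many liver cancers make again, with a score of 210 at 0 µM and 82.7 for its partner at 15 µM. Its nearest H3K4me1 summits lay 2344 bp away at 15 µM and 1812 bp away at 0 µM, with ranks of 99.7 and 98.2. The first of the 15 µM list was the partner of the member at chr11:66351241, 3612 bp outside B4GAT1, an enzyme of dystroglycan glycosylation, with 116 at 15 µM and 179 at 0 µM. Of the 100 highest summits of the 0 µM list, 25 were members and 58 belonged to the comparison; members make up 20.1% (19.4 to 20.9) of both sets together. Members are 2274 of the 37946 summits of the whole 0 µM list. Of the 100 highest of the 15 µM list, 28 were partners of members. The members' distinct partners are 2227 of the 29305 summits of that list.

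The next members by 0 µM score lay 106409 bp from NUBPL, an assembly factor of respiratory complex I (85.2 at 15 µM and 161 at 0 µM), and in PLD1 (48.8 at 15 µM and 132 at 0 µM). PLD1 is phospholipase D, which splits phosphatidylcholine into phosphatidic acid and choline. Its member at chr3:171680997 lay 2922 bp from an H3K4me1 summit of rank 99.4 at 15 µM and 2657 bp from one of rank 10.7 at 0 µM. A member 68688 bp from FOXA2, a pioneer factor of liver development, scored 26.0 at 15 µM and 130 at 0 µM. Those in ATP9A, a membrane ATPase of endosomes (94.2 at 15 µM and 128 at 0 µM), PHLPP2, a phosphatase of AKT (63.8 at 15 µM and 128 at 0 µM), and PACS1, a sorting adaptor (56.3 at 15 µM and 123 at 0 µM), completed the 8. By 15 µM score, PGM1, a phosphoglucomutase (103 at 15 µM and 66.3 at 0 µM), EGFR, the epidermal growth factor receptor (77.3 at 15 µM and 68.2 at 0 µM), HMGA2 (above) and a summit 223409 bp from MECOM, a zinc finger transcription factor (71.9 at 15 µM and 73.6 at 0 µM), joined AFP, B4GAT1, NUBPL and ATP9A. All 8 of the first group, and 6 of the 8 of the second with EGFR and PGM1 among them, had nearest H3K4me1 ranks above 98 in the 15 µM list.

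Across all members the scores were close to those of the comparison. The partner's median score was 11.9 (11.4 to 12.1) for members and 11.5 (11.4 to 11.7) for the comparison, and the median at 0 µM was 14.6 (14.2 to 14.9) and 14.4 (14.2 to 14.6). Median ranks were 63.3 and 60.5 at 15 µM, and 69.4 and 68.2 at 0 µM, with the members higher on 14 and 13 of 23 chromosomes. Ranks above 90 were held by 18.6% (17.0 to 20.3) of members' partners and 15.0% (14.3 to 15.8) of the comparison's at 15 µM, and by 493 members (21.7%) and 1781 of the comparison (19.7%) at 0 µM. The partner lay at a median of 171 bp (160 to 184) from the member and of 154 bp (148 to 160) in the comparison, and within 100 bp for 34.8% and 38.9%.

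The stable share was close with and without a nearby H3K4me1 summit. Over all 28584 distal 0 µM summits, 39.5% had a 15 µM partner and 19.8% had no H3K4me1 summit within 1 kb. Stability was 40.1% (38.8 to 41.4) without H3K4me1 and 39.4% (38.7 to 40.0) with it. The 3394 distal summits with neither a partner nor H3K4me1 had a median 0 µM score of 9.64, below the 14.6 of the members. These counts follow from the values that chose the members and are given as a description.

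Members lay inside protein-coding genes more often than the comparison did. They did so in 1645 cases (72.3%, 70.5 to 74.2) against 60.6% (59.6 to 61.6), a difference of 11.8 points that was positive on 22 of 23 chromosomes. Chromosome 21 was the exception, with 33.3% of its 12 members. The order held among summits alone within 2 kb (67.1% against 56.4%), among those with a neighbour (74.4% against 63.1%), among 0 µM scores above the list median (70.7% against 58.5%) and at or under it (76.0% against 64.7%). Distances to the closest coding gene end were similar, with medians of 33982 bp and 34886 bp. The summits with neither partner nor H3K4me1 were inside genes in 68.3% of cases (66.7 to 69.9). The 804 host genes had a median length of 129 kb, and the 2173 hosts of the comparison 106 kb.

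Members also sat in denser stretches of acetylation. No other 0 µM summit lay within 2 kb of 28.6% (26.8 to 30.5) of members and 37.6% (36.6 to 38.6) of the comparison, a difference of -8.97 points that was negative on 19 of 23 chromosomes. With a distance of 1 kb the difference was 0.794 points and its direction turned. From 5 to 10 kb away, members had 1.85 H3K27ac summits per region at 15 µM and 1.81 at 0 µM, against 1.08 and 1.13 around the comparison. Out to 50 kb the members stayed above it in both lists.

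**Figure D3:**
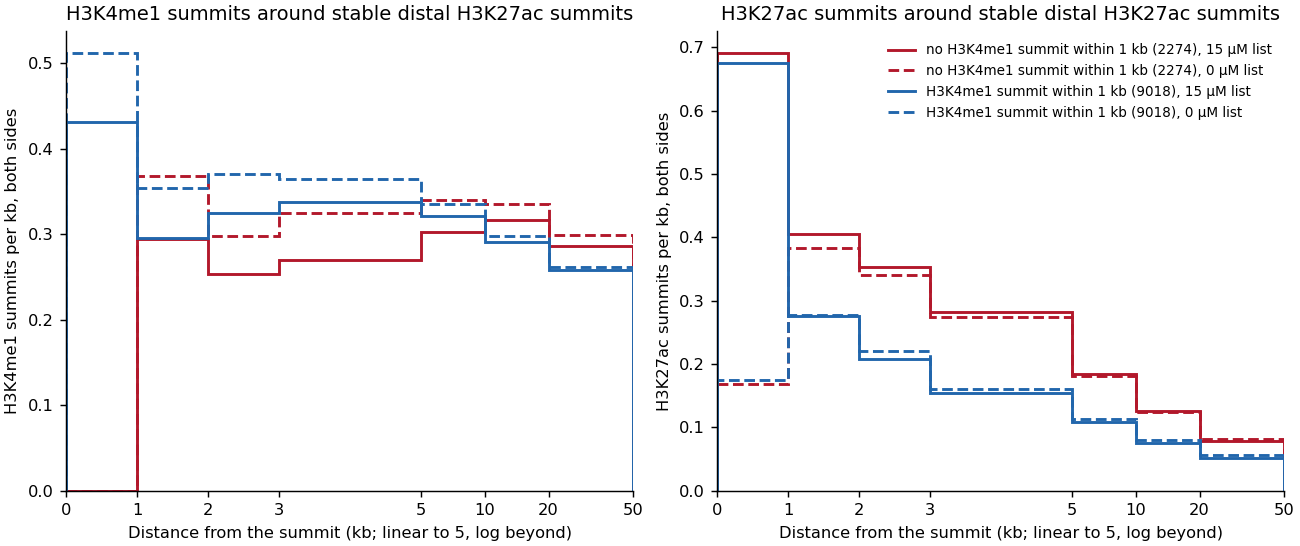
Mean number of summits per kb (y axis) against distance from the summit (x axis, kb, linear to 5 and log beyond) for H3K4me1 (left) and H3K27ac (right), in the 15 µM lists (solid) and the 0 µM lists (dashed). Red is the 2274 summits with no H3K4me1 summit within 1 kb, for which the first H3K4me1 bin is 0 by the rule, and blue the 9018 with one; from 1 kb outward the red H3K27ac lines lie above the blue.

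Around members, H3K27ac summits at 15 µM were about as many as at 0 µM, although the whole 15 µM list was shorter. Counting each summit once, 4635 at 15 µM and 4503 at 0 µM lay 1 to 5 kb from a member, a ratio of 1.03, and 15 of 23 chromosomes had at least as many at 15 µM. Around the comparison the counts were 10381 and 11040, a ratio of 0.940, which was the lower ratio on 21 of 23 chromosomes. From 5 to 50 kb the ratio was 0.924 around members and 0.866 around the comparison. For H3K4me1 the members had the lower ratio: 4309 summits at 15 µM and 5123 at 0 µM lay 1 to 5 kb away (0.841), against 18933 and 21004 around the comparison (0.901). Around the 3394 distal summits with neither a partner nor H3K4me1, the H3K4me1 ratio was 0.878. The list ratio was 77.2% for H3K27ac and 102% for H3K4me1. Stable summits are chosen for a 15 µM H3K27ac summit nearby, and members also for no H3K4me1 summit within 1 kb at either dose. With 1 library a dose, the part of depth or peak calling in these ratios was not tested.

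**Figure D4:**
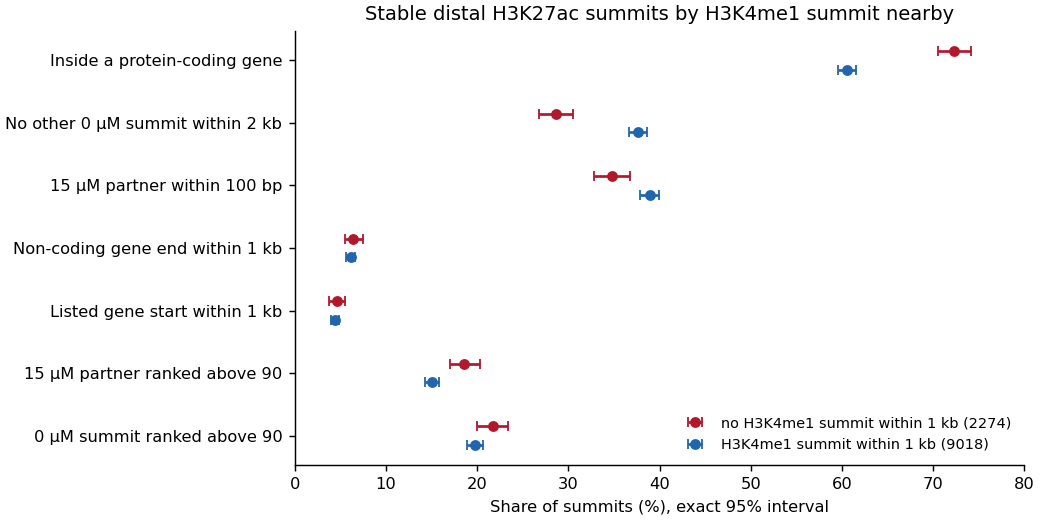
Shares of stable distal H3K27ac summits (x axis, %) with each property, as points with exact 95% intervals. Red is the 2274 with no H3K4me1 summit within 1 kb and blue the 9018 with one; the intervals are apart for gene bodies (72.3% against 60.6%), for single summits (28.6% against 37.6%), for close partners and for 15 µM partners ranked above 90, and overlap for gene ends, starts and 0 µM ranks above 90.

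Some genes held several members, though most host genes held 1. All members together formed 1983 loci when joined within 2 kb and 1295 within 50 kb. Of the 804 hosts, 67 held 5 or more and 467 held 1. The members inside genes were 1645 in 804 hosts, and those of the comparison 5462 in 2173 hosts. How many of the comparison's hosts held 1, or 5 or more, is not given, so no such run is shown to be particular to members. The host with most was FNDC3B, a membrane protein with fibronectin domains, with 19 members, followed by DIP2B with 17, ACTN4 with 14, RASSF3 with 13, LGR4 with 12 and ADGRG6, an adhesion receptor, with 11. In FNDC3B the comparison had 17 summits, in DIP2B 16, in ACTN4 3, in RASSF3 4 and in LGR4 4. ACTN4 also held the densest 50 kb stretch, 14 members over 46804 bp (chr19:38656558-38703361), with 26 H3K27ac summits at 15 µM and 30 at 0 µM but only 3 and 4 H3K4me1 summits. The scores of the ACTN4 members ran from 6.31 to 28.6 at 15 µM and from 5.93 to 57.4 at 0 µM. DIP2B had 12 members in such a stretch, with 2 H3K4me1 summits at 15 µM and 8 at 0 µM. RASSF3, of the RAS-association family, had 12 members, with 9 and 10 H3K4me1 summits in that order. FNDC3B had 9 members, with 2 and 3. The stretch over SLC22A23, an orphan transporter, and LOC110384692 had 9 members, with 9 and 12. NFIA, a transcription factor, had 8 members, with 6 and 8.

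By chromosome, the lowest shares of stable distal summits were 24 of 206 on X (11.7%, 7.61 to 16.8) and 12 of 100 on chromosome 21, and the highest was 55 of 204 on chromosome 19 (interval 21.0 to 33.6). Chromosome 3 held the most, 220 members.

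Members near ends of non-coding genes (146) included strong sites. The highest-scoring lay 86 bp from an end of LURAP1L-AS1, inside LURAP1L, with 54.8 at 15 µM and 110 at 0 µM. Another lay 86 bp from the snRNA gene LOC124904145 (17.0 at 15 µM and 86.7 at 0 µM). PDE4D-AS1, inside the cyclic AMP phosphodiesterase gene PDE4D, had 48.4 at 15 µM and 83.0 at 0 µM. The pseudogene RPL21P43 lay 926 bp from the MECOM member. LINC02453 is the neighbour of the TMPO member. LOC124906008, inside SPTBN1, a spectrin gene, had 37.5 at 15 µM and 69.8 at 0 µM, 7045 bp from any H3K4me1 summit. LOC124902651, near BBOX1, which makes carnitine, had 38.8 at 15 µM and 69.6 at 0 µM. By type, 109 of the 146 were ends of long non-coding RNA genes (4.79% of members, against 4.36% of the comparison).

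The 5 members farthest from any H3K4me1 summit were mostly of modest score. Of these, 3 lay in CCDC50, at 10666, 9959 and 9325 bp, with 15 µM scores of 11.4, 11.4 and 9.72 and 0 µM scores of 5.93, 13.2 and 11.8, and the first pair share 1 partner. The one near USP14, a deubiquitinase of the proteasome, lay 10526 bp away and scored 9.39 at 15 µM and 9.07 at 0 µM. The exception was in NUAK1, an AMPK-related kinase, 9971 bp away, with 24.0 at 15 µM and 41.0 at 0 µM.

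Plasma protein and liver transcription factor genes had a member more often than the share over all genes, as had the oncofetal and mesenchymal lists below. A member lay inside or within 50 kb of 1619 of 19974 protein-coding genes (8.11%), and a summit of the comparison of 5237 (26.2%). Of 23 plasma protein genes, 11 had a member (47.8%, 26.8 to 69.4) and 16 had a comparison summit (69.6%). Of 25 liver transcription factors, 12 had a member (48.0%, 27.8 to 68.7) and 19 a comparison summit (76.0%). Of 15 blood cell markers 0 had a member (interval 0 to 21.8%) and 3 a comparison summit, and of 14 neuron and muscle markers 0 (0 to 23.2%) and 2. Of 15 fibroblast, stellate and endothelial markers, 1 had a member (PECAM1, 0.169 to 31.9%) and 1 a comparison summit. These intervals include the 8.11% of all genes. The median number of members per gene was 0 in each list and over all genes. Genes with a member are longer (median 61.6 kb, against 22.8 kb for the others), and neighbours share members, so the lists are described and not tested.

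**Figure D5:**
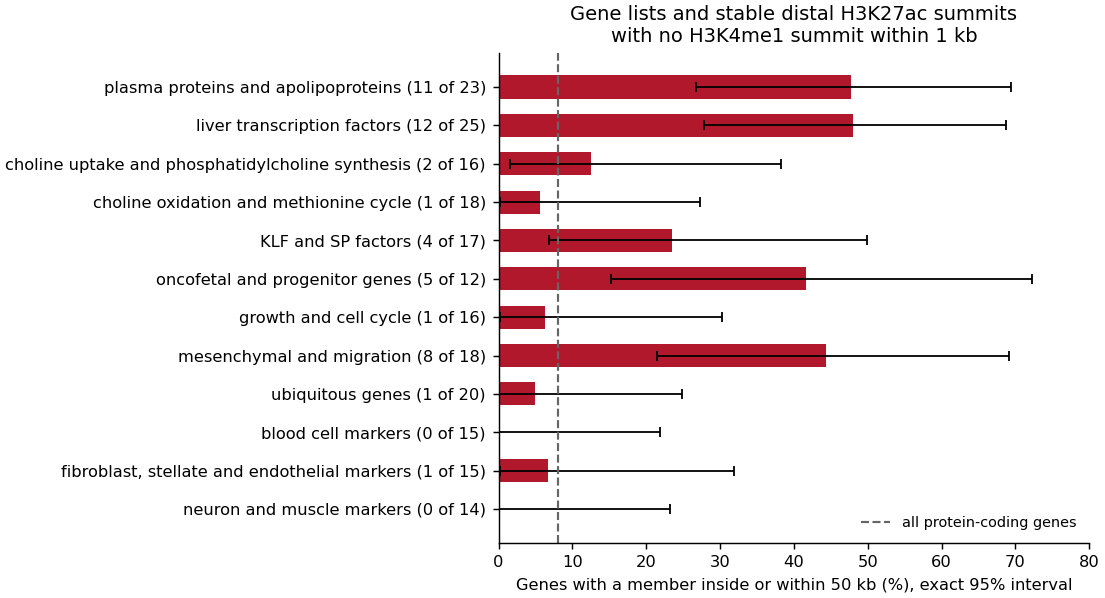
Share of the genes of each list with a member inside or within 50 kb (x axis, %), as bars with exact 95% intervals and the counts beside the names. The dashed line is the 8.11% of all protein-coding genes; the plasma protein, liver transcription factor, oncofetal and mesenchymal lists lie above it with their whole interval.

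Among plasma proteins, ALB, for serum albumin, had 5 members, which scored 8.95 to 82.7 at 15 µM and 5.88 to 210 at 0 µM. The highest of them is the AFP summit, and AFP had 2 members, both shared with ALB. TF, for transferrin, had 2 inside the gene, at 38.3 and 7.13 at 15 µM and 36.7 and 21.8 at 0 µM. Among liver factors, NR1H4, the bile acid receptor FXR, had 8 members, with 15 µM scores from 11.4 to 50.5 and 0 µM scores from 8.65 to 78.1. The H3K4me1 beside 5 of these 8 ranked above 95 in both lists, and beside the member at chr12:100437294 it ranked 50.8 at 15 µM and 48.0 at 0 µM. PROX1, a homeobox factor of liver development, had 4, up to 40.5 at 15 µM and 64.1 at 0 µM. FOXA2 had 4 within 50 kb, up to 21.5 at 15 µM and 18.5 at 0 µM, all weaker than the one further out.

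For both lists of choline genes, the interval of the share with a member included the 8.11% of all protein-coding genes. Of 16 genes of choline uptake and phosphatidylcholine synthesis, 2 did (12.5%, 1.55 to 38.3) and 10 had a comparison summit (62.5%). PCYT1A, the rate-limiting enzyme of phosphatidylcholine synthesis, held 2 members that share a partner of score 19.1 at 15 µM, with 10.8 and 6.26 at 0 µM. SLC44A1, a choline transporter, held 1, at 10.4 at 15 µM and 13.8 at 0 µM. Of 18 genes of choline oxidation and the methionine cycle, 1 did (5.56%, 0.141 to 27.3), AHCY, which hydrolyses S-adenosylhomocysteine, at 11.8 at 15 µM and 11.6 at 0 µM. Of 17 KLF and SP factors, the family of KLF5, 4 had a member (23.5%, 6.81 to 49.9) and 8 a comparison summit (47.1%). KLF6 had 3, KLF12 and KLF13 had 2 each and KLF3 had 1, and KLF5 had 0 members and 2 comparison summits. The strongest of these was 25370 bp from KLF6, with 15.9 at 15 µM and 42.2 at 0 µM.

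Of 12 oncofetal and progenitor genes, 5 had a member (41.7%, 15.2 to 72.3), and 6 had a comparison summit. IGF2BP3, an RNA-binding protein of fetal tissue, had one of its 2 at 31.4 at 15 µM and 78.3 at 0 µM and the other at 31.5 at 15 µM and 46.7 at 0 µM. IGF2BP1, its relative, had 2 at 8.32 and 13.7 at 15 µM and at 16.5 and 9.78 at 0 µM, and GPC3, a surface proteoglycan of liver cancer, had 2 at 6.03 and 13.2 at 15 µM and at 12.1 and 6.39 at 0 µM. Of 18 mesenchymal and migration genes, 8 had a member (44.4%, 21.5 to 69.2) and 11 had a comparison summit (61.1%). Over all protein-coding genes, 8.11% had a member and 26.2% a comparison summit. TGFBR2, a TGF-beta receptor, had 7 of low to middling score, the highest at 0 µM with 6.74 at 15 µM and 15.6 at 0 µM. LPP, a focal adhesion protein, had 4, and NRP1, a semaphorin and VEGF co-receptor, had 4, up to 25.7 at 15 µM and 44.5 at 0 µM. Of 16 growth and cell cycle genes, 1 had a member (CDK6, at 18.2 at 15 µM and 20.6 at 0 µM) and 7 a comparison summit. Of 20 ubiquitous genes, 1 had a member (ACTB, at 10.3 at 15 µM and 14.6 at 0 µM) and 5 a comparison summit.

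Values of the summits just inside and just outside the limits of the rule follow. The 319 members with an H3K4me1 summit from 1 to 1.1 kb away had median scores of 12.3 at 15 µM and 15.6 at 0 µM, and the 357 summits with one from 0.9 to 1 kb away had 12.8 and 16.0. The 134 members with a partner from 0.45 to 0.5 kb away had medians of 11.2 at 15 µM and 11.6 at 0 µM, and the 130 summits with one from 0.5 to 0.55 kb away had 10.7 and 11.6. The 47 members from 2.5 to 3 kb from a coding gene end had 10.6 at 15 µM and 12.7 at 0 µM, and the 46 summits from 2 to 2.5 kb from one had 12.5 and 12.7. Just inside and just outside the H3K4me1 limit, 66.8% and 63.0% lay inside protein-coding genes, closer than the 11.8 points between the whole sets. These shares were 76.1% and 75.4% at the partner limit, and 76.6% and 71.7% at the gene-end limit.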

How the data were processed

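The H3K27ac and H3K4me1 summit lists of 1 library per mark and dose were used, each as deposited. MACS2, Bowtie, Picard and deepTools appear in the submitters' processing notes, with no version, as does the build hg38. The deposited lists give a position, a name and a score for each summit, and the authors' score was read as −log10 of the caller's p-value, or of its q-value, since which of them it is has no source. Nor have the calling settings and the use of inputs. The lowest scores were 5.01 in both H3K27ac lists and 1.30 at 15 µM and 1.31 at 0 µM in the H3K4me1 lists, so a summit below these limits is not listed.

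Positions were written 1-based, and lines outside chromosomes 1 to 22 and X were dropped (27 and 38 H3K27ac lines at 15 µM and 0 µM, 429 and 422 H3K4me1 lines). Gene ends were read from RefSeq (GRCh38.p14, the assembly family of hg38), in a table with no strand or exons (19974 protein-coding and 39124 other genes), and starts and sequences from a RefSeq promoter table. Of the listed genes, H19 was left out because it is not protein coding. A motif search around the summits was planned and not run, because it needs a genome sequence. Shares have exact Clopper-Pearson intervals, and medians have binomial order-statistic intervals. No test between doses was possible, so differences carry the number of chromosomes with their sign. The members and gene lists were chosen with earlier results of these data known.

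Genes were named by a rule: the 8 members with the highest score at each dose, 1 per 200 kb, the 6 stretches of 50 kb with most members, the 8 highest-scoring members within 1 kb of a non-coding gene end, the 5 members farthest from H3K4me1, and up to 3 genes of each list with most members. One of the members near a non-coding gene end is not reported here. Hosts, gaps, starts and small RNA genes were named after their values were seen. The member rule was tested on simulated data. Alternatives changed the matching distances, score limits, joining of loci, the starting list, the chromosomes and the gene windows. Python 3.11.15, NumPy 2.4.6, pandas 2.3.3, SciPy 1.17.1 and Matplotlib 3.10.9 were used.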

Additional observations from a re-analysis of the deposited data

How the results depend on the processing

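Of 124 recomputed values, 94 stayed within the interval of the reported value (counts, within 1.5 times) and 29 moved beyond it. The other 1 turned its sign, which was counted only where the interval of the reported difference excluded 0. The non-coding end difference (0.321 points) and the 0 µM rank difference (1.23), whose intervals include 0, also changed sign under some alternatives. With partners within 250 bp there were 1450 members, a median partner offset of 89.5 bp and 0% of members over 10 kb from H3K4me1; with 1000 bp the offset was 284 bp. With no H3K4me1 summit within 500 bp there were 4990 members, 44.2% of stable distal summits, the gene-body difference was 5.65 points, the 0 µM rank difference 6.07 and the offset 155 bp. With 2 kb these were 670 members, 5.93%, 18.1 points and -2.10, and the non-coding end difference was -1.16 points. With H3K27ac scores of at least 10 there were 1230 members, the offset was 150 bp and 0% lay over 10 kb away. Over 5 kb from H3K4me1 lay 1.72%. With 1 summit per locus the share was 20.9% and the single-summit difference -12.5 points. That difference was -13.9 points from the 15 µM list, -11.4 with 5 kb, and turned to 0.794 with 1 kb. With H3K4me1 from the 15 µM list alone, an alternative chosen after seeing the data, there were 4498 members (39.8%), 0.889% over 10 kb away. From the 0 µM list alone there were 3724 (33.0%), 9.14 points more in gene bodies, 0.349% over 10 kb away. The gene-body difference was positive under every alternative run. Of the listed genes, 46 had a member within 50 kb, 39 within 20 kb and 55 within 100 kb, and of all protein-coding genes 1619, 1120 and 2497. By list, at 20 kb plasma proteins went to 7, KLF and SP factors to 2 and ubiquitous genes to 0, and at 100 kb blood cell, fibroblast and endothelial, growth and ubiquitous genes had 2 each; the others stayed within 1.5 times. The cause of these shifts was not tested, beyond fewer or more summits being eligible. No paired analysis was possible because each mark and dose had 1 library. Depth is unknown, so summits missing from a list cannot be told from summits below its score limit.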

Other observations

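A few members stood beside genes of small RNAs, of which snRNA and tRNA genes are transcribed by RNA polymerases II and III from compact promoters. Within 500 bp of an snRNA, tRNA, miRNA, snoRNA or scRNA gene lay 16 members (0.704%, 0.403 to 1.14) and 40 summits of the comparison (0.444%, 0.317 to 0.604), so the intervals overlap. These were chosen after their values were seen. They included RNU5E-1, a U5 spliceosomal RNA gene, 114 bp away (38.4 at 15 µM and 52.4 at 0 µM), RNU1-4, a U1 RNA gene, 95 bp away (18.6 at 15 µM and 55.1 at 0 µM), RNU4ATAC, of the minor spliceosome, 27 bp away (9.14 at 15 µM and 32.9 at 0 µM), RNU5B-1, 120 bp away (18.2 at 15 µM and 28.2 at 0 µM), and RN7SL1, the RNA of the signal recognition particle, 338 bp away (14.6 at 15 µM and 18.5 at 0 µM). The U1, U5 and tRNA genes have near-identical copies, so reads, and with them these summits, are uncertain.

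Members further from H3K4me1 lay in gene bodies more often: 65.5% of those with a summit within 1.5 kb, 76.8% from 1.5 to 2 kb, 79.3% from 2 to 3 kb, 81.1% from 3 to 5 kb and 83.8% of the 37 from 5 to 10 kb. Their median 0 µM scores, 14.8, 14.7, 13.8, 14.5 and 13.2 in that order, stayed within a narrow range.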
